A study of Mus musculus with 15 samples.

Results

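The Reelin pathway was described here through 10 genes: *Reln*, which encodes the secreted ligand, *Adamts3*, which encodes a protease of Reelin, *Lrp8* and *Vldlr*, which encode its receptors, *Lrpap1*, which encodes a chaperone of these receptors, and *Dab1*, *Fyn*, *Crk*, *Crkl*, and *Pafah1b1*, which act inside the receiving cell. The genes were chosen by their role in this pathway, with earlier results of these data known, and all 10 were found among the 19475 genes that were measured. Their values come from RNA-Seq of brain tissue from 15 individual embryos collected at E16.5, of which 5 were WT, 5 heterozygous (*Tbr1*+/K228E), and 5 homozygous (*Tbr1*K228E/K228E), with 3 females and 2 males per genotype. The mutant mice carry 1 or 2 germline knock-in alleles in which the T-box protein TBR1 has glutamate in place of lysine in its DNA-binding domain, on a C57BL/6J background. The allele is present in every cell of the animal, and its neomycin cassette had been removed with a protamine-Cre line. The tissue was described as forebrain in the methods of the study and as brain in the sample labels. Values are normalized read counts, which are read counts per gene after scaling of each library for its size, and all 10 genes passed the filter of a mean of at least 5.

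Reelin is a large extracellular glycoprotein that controls how migrating neurons settle into layers. In the embryonic cortex it is secreted mainly by Cajal-Retzius cells of the marginal zone, where it binds the receptors VLDLR and ApoER2 on migrating neurons. Binding leads to phosphorylation of the adaptor DAB1 by kinases of the Src family, and phosphorylated DAB1 recruits CRK and CRKL and passes the signal to adhesion and the cytoskeleton. Mice without *Reln*, without *Dab1*, or without both receptors have inverted cortical layers.

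As a check on the genotype labels, *Tbr1* itself was 3537 ± 1049 in WT, 6269 ± 1532 in heterozygotes, and 11366 ± 3160 in homozygotes (SD, n = 5 each). Neighboring genotypes overlapped, so that this checks the groups and not the label of each embryo. Whole reads could not be recovered from the deposited values, and the step between the lowest values gave a rough estimate of 26.3 to 38.0 M reads per library (M, megareads). The embryos differed in tissue content within each genotype. The summed level of 17 Hox genes, which mark hindbrain and spinal cord, ranged from 4.80 to 3275 in WT, from 3.66 to 3963 in heterozygotes, and from 4.67 to 575 in homozygotes. For 11 meningeal genes the sum ranged from 547 to 34428 in WT, from 4701 to 19802 in heterozygotes, and from 730 to 23176 in homozygotes. The 6 markers of telencephalon and cortex were present in every embryo, with sums from 12984 to 36986.

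*Reln* lies on the minus strand of chromosome 5 from 21884454 to 22344702, and *Adamts3* lies on the minus strand of the same chromosome from 89677087 to 89883334 (GRCm38). These were the 2 of the 10 genes that passed the threshold of the limma fit over all genes, and the 250 bases in front of their annotated starts are shown because TBR1 is a DNA-binding protein and both genes fell in its mutant. The sequences are from the RefSeq annotation of GRCm38.p6, at chr5:22344706-22344955 for *Reln* and chr5:89883335-89883584 for *Adamts3*, both on the minus strand and written 5′ to 3′, with CpG dinucleotides in capitals.
Reln: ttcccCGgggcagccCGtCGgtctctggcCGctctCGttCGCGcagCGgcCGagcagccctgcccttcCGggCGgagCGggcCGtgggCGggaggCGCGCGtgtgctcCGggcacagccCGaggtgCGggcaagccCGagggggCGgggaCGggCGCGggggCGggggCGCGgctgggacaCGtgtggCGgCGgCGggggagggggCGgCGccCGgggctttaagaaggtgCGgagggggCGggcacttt
Adamts3: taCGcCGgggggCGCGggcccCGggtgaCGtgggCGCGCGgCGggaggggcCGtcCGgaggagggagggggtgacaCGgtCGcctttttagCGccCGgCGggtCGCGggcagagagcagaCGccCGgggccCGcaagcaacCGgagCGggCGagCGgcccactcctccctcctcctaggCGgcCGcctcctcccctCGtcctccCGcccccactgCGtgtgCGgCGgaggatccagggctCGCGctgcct
Both stretches are rich in CpG, with 37 CpG dinucleotides in front of *Reln* and 35 in front of *Adamts3*. With the first 50 transcribed bases included, the *Reln* window had a GC content of 80.7%, above 99.2% of promoter windows of the same length, and the *Adamts3* window had 77.3%, above 97.8% of them. The T-box site letters AGGTGTGA, or TCACACCT on the other strand, were not in the 14 promoter windows of the 10 genes, and neither were the shorter letters GGTGTGA, or TCACACC on the other strand, which are contained in the longer site. Of 32851 promoter windows of 300 bases, 1.28% held the longer site and 3.98% held the shorter one. At these shares an absence from 14 windows is not unusual, and sequence outside the windows was not searched. The study names *Reln* as a direct target of *Tbr1*, and binding of TBR1 was not tested here.

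*Reln* fell in homozygous mutants. In WT replicates 1 to 5 its normalized read counts were 10821, 10551, 10726, 10831, and 10906. In heterozygous replicates 1 to 5 they were 9189, 10206, 10478, 10082, and 10432. In homozygous replicates 1 to 5 they were 6444, 8400, 7161, 7318, and 7213. The WT embryos lay close together, the heterozygous embryos all lay below them, and the homozygous embryos all lay below the heterozygous ones, so that no 2 genotypes overlapped.

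The mean level of *Reln* was 10767 ± 136 in WT, 10077 ± 522 in heterozygotes, and 7307 ± 702 in homozygotes (SD, n = 5 each). The level in homozygotes was 67.9% of WT, with a log2 fold change of -0.56 (SE 0.0557, 95% interval from -0.68 to -0.45) on the log2(value + 1) scale. This change passed the threshold in limma (adjusted p = 0.000603, Benjamini–Hochberg over 16507 genes), and *Reln* had the smallest p of all genes tested in this comparison. Of all genes tested, 11 (0.0666%) were called lower in homozygotes than in WT mice, and 45 (0.273%) were lower without overlap between embryos. Of the 10 pathway genes, 2 were called lower (*Reln* and *Adamts3*), 3 were lower without overlap (*Reln*, *Adamts3*, and *Lrpap1*), and 0 were called higher. The study itself counted *Reln*, *Adamts3*, *Lrpap1*, and the marker gene *Ndnf* among its differentially expressed genes in these samples. Their direction here is thus not independent evidence, and the main limma fit called neither *Lrpap1* nor *Ndnf*. By qRT-PCR the study reports a rise of *Tbr1* and a fall of *Reln* in homozygotes. It states that changes of other genes could not be verified in this way, although their directions were similar. Its qRT-PCR primers included those for *Adamts3*, *Lrpap1*, and *Ndnf*.

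The heterozygous level of *Reln* lay nearer to WT than to the homozygous level. It was 93.6% of WT, with a log2 fold change of -0.10 (SE 0.0557) that did not pass correction (adjusted p = 0.999, limma, which takes 1 estimate of the spread for the 3 genotypes). Every heterozygous embryo lay below every WT embryo, and the two-sided exact permutation test of *Reln* alone gave the smallest p that 5 against 5 embryos allow, 0.00794. No gene was called lower in this comparison by limma (0 of 16507, 0%), 26 genes (0.158%) were lower without overlap, and 295 genes in either direction had an unadjusted p under 0.05. Of the 10 genes, *Reln* was the 1 that was lower without overlap.

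From heterozygotes to homozygotes the mean of *Reln* decreased by 27.5% (log2 fold change -0.47, adjusted p = 0.00707, limma). Here 9 of all genes tested (0.0545%) were called lower and 64 (0.388%) were lower without overlap, and of the 10 pathway genes *Reln* and *Adamts3* were both. The comparisons of each mutant genotype with WT share the same 5 WT embryos. On the log2 scale the heterozygous mean of *Reln* lay 0.19 (SE 0.0483) above the midpoint of WT and homozygotes, with an unadjusted p of 0.00158 (limma) and an adjusted p of 0.994. The corresponding value for *Adamts3* was 0.22 (adjusted p = 0.994, limma).

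The *Reln* values were unusually close together in WT mice. Its coefficient of variation was 1.27% in WT, 5.18% in heterozygotes, and 9.60% in homozygotes, where the medians over all genes tested were 10.7%, 9.10%, and 9.81%. In WT mice 0.133% of genes varied less than *Reln*, and in homozygotes 49.1% did. No interaction of genotype and sex passed the threshold for any of the 10 genes (limma). *Reln* was lower in homozygotes than in WT mice by a log2 difference of -0.55 among the 3 females per genotype and -0.58 among the 2 males per genotype, with no overlap in either sex.

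**Figure D1:**
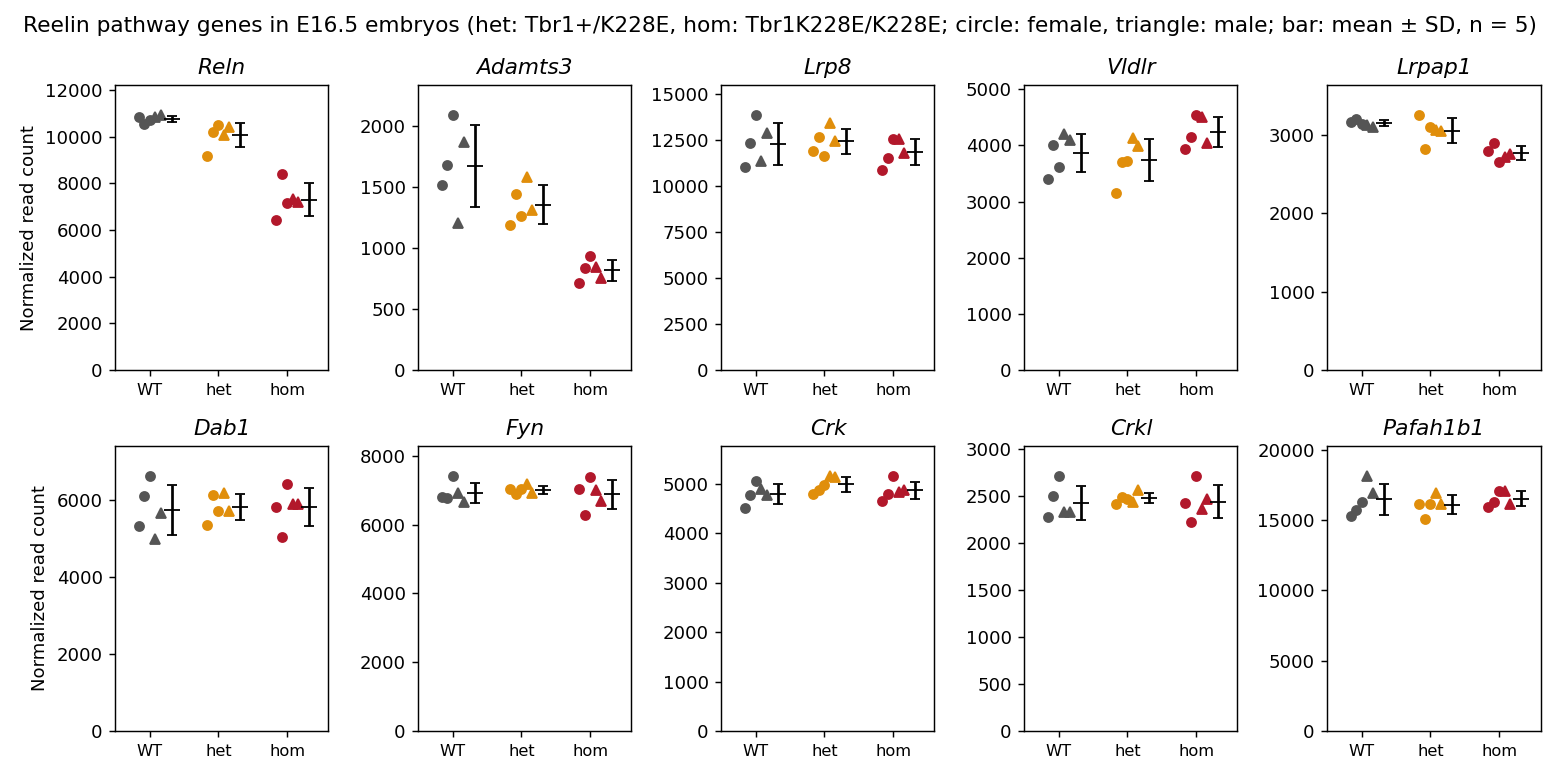
Normalized read counts of the 10 Reelin pathway genes (vertical axes, each from 0) in WT, *Tbr1*+/K228E (het), and *Tbr1*K228E/K228E (hom) embryos, with 1 point per embryo, circles for females, triangles for males, and bars for the mean ± SD (n = 5). The 5 homozygous embryos lie below all other embryos for *Reln* (6444 to 8400) and *Adamts3* (712 to 938), whereas the groups overlap for the receptors and for the genes that act inside the cell.

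Cajal-Retzius cells are the main source of Reelin in the embryonic cortex, so that their other markers were set beside the *Reln* values. In bulk samples, fewer cells of a type and less RNA per cell cannot be told apart. The summed level of 9 listed markers ranged from 12781 to 20897 in WT (median 16187), from 9237 to 18509 in heterozygotes (median 15432), and from 10599 to 20022 in homozygotes (median 15052). These ranges overlapped (two-sided exact permutation test, p = 0.468 for homozygotes against WT mice and p = 0.532 for heterozygotes against WT mice), and 0 of the 9 genes passed the threshold in any of these comparisons. Of the 9 genes, 8 had a lower mean of log2 values in homozygotes than in WT mice, and 2 of them, *Ndnf* and *Trp73*, had an unadjusted p under 0.05. *Cacna2d2* and *Ebf3*, which other brain cells express too, weighed most in the total, with 5150.3 ± 449.6 and 5039 ± 1904 in WT mice.

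No marker of the list passed the threshold. *Ndnf*, which marks these cells and encodes a secreted factor, was 478 ± 142 in WT and 235 ± 63.3 in homozygotes (log2 fold change -1.01, adjusted p = 0.301, limma). *Trp73*, a transcription factor of the Cajal-Retzius lineage, was 384 ± 104 in WT and 250.3 ± 51.4 in homozygotes (log2 fold change -0.59, adjusted p of 1, limma). *Lhx1* and *Lhx5*, transcription factors of the same cells that other brain regions also express, had log2 fold changes of -0.15 and -0.21. *Ndnf* ranged from 329 to 659 in WT and from 174 to 335 in homozygotes, so that the groups overlapped, and it was 484 ± 146 in heterozygotes. These marker genes were named after their values were seen. The part of Cajal-Retzius cells in the fall of *Reln* was not tested.

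Markers of other cell types that produce Reelin were set beside *Reln* in the same way. The summed level of 7 markers of GABAergic interneurons ranged from 16925 to 23424 in WT and from 17724 to 24565 in homozygotes (exact permutation test, p = 0.405). Of these 7 genes, 0 had a lower mean of log2 values in homozygotes than in WT mice. Their log2 fold changes ran from 0.04 for *Gad2* to 0.17 for *Lhx6*. For 3 markers of mitral cells of the olfactory bulb the sum ranged from 669.8 to 1133 in WT and from 573 to 763 in homozygotes (exact permutation test, p = 0.151). Of these 3, *Cdhr1* was 416 ± 203 in WT, 432 ± 197 in heterozygotes, and 214 ± 43.1 in homozygotes (log2 fold change -0.84, unadjusted p = 0.0227, adjusted p of 1, limma), *Tbx21* had a log2 fold change of -0.89 at very low levels, and *Doc2g* had one of 0.11. For 5 markers of cerebellar granule cell precursors the sum ranged from 2364 to 5378 in WT and from 1890 to 5236 in homozygotes (exact permutation test, p = 0.754). All 5 had a lower mean of log2 values in homozygotes than in WT mice, where 51.3% of all genes tested did. The log2 fold change of *Barhl2* was as small as -0.0071. All 5 were also lower in heterozygotes than in WT mice. *Atoh1*, the defining transcription factor of these precursors, was at 0 in 2 of the 15 embryos. It was 48.7 ± 38.7 in WT, 35.4 ± 23.9 in heterozygotes, and 14.0 ± 18.2 in homozygotes, and the groups overlapped. Between homozygotes and WT mice its log2 fold change was -2.01 (unadjusted p = 0.135, limma). The part of these cells in the *Reln* values was not tested.

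*Adamts3* also fell in homozygotes. Its product cleaves Reelin in its amino-terminal part, and this cleavage lowers the activity of the ligand. In WT replicates 1 to 5 its normalized read counts were 1517, 1679, 2082, 1200.9, and 1865. In heterozygous replicates 1 to 5 they were 1186, 1438, 1259.8, 1579, and 1310. In homozygous replicates 1 to 5 they were 712, 835, 938, 847, and 754. The homozygous embryos lay below all others, whereas the heterozygous embryos overlapped with the WT embryos and 1 of them lay below all 5.

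The mean level of *Adamts3* was 1669 ± 336 in WT, 1355 ± 156 in heterozygotes, and 817 ± 87.9 in homozygotes (SD, n = 5 each). The level in homozygotes was 49.0% of WT, with a log2 fold change of -1.01 (SE 0.126, 95% interval from -1.28 to -0.74) and an adjusted p of 0.00298 (limma). Its 95% interval did not overlap with that of *Reln*, and the difference between the genes was not tested. In heterozygotes it was 81.2% of WT, with a log2 fold change of -0.28 that did not pass correction (adjusted p = 0.999, limma), and the exact permutation test gave p = 0.111. Homozygotes differed from heterozygotes by a log2 fold change of -0.73, which passed at an adjusted p of 0.046 (limma). This last call was lost in each of the 10 fits that left out 1 embryo of either genotype (adjusted p from 0.0624 to 0.165, limma), although the log2 fold change stayed between -0.78 and -0.67. It was also lost with sex as a covariate (adjusted p = 0.0629, limma).

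The WT values of *Adamts3* were higher in the 2 embryos with a Hox total under 100 (2082 and 1865) than in the other WT embryos. The lowest value, 1200.9, was that of WT replicate 4, the WT embryo with the highest Hox total (3275), and the lowest heterozygous value, 1186, was that of replicate 1, which had the highest Hox total of all (3963). *Reln* showed its lowest heterozygous value in the same replicate 1, whereas it was high in WT replicate 4 (10831). Not all embryos followed this order. Homozygous replicate 1, with the highest homozygous Hox total (575), had the lowest *Adamts3* value of its genotype (712). The next lowest (754) was that of replicate 5, with the lowest homozygous Hox total (4.67). Heterozygous replicate 3, with a Hox total of 6.59, had the next lowest heterozygous *Adamts3* value (1259.8). In the 9 embryos with a Hox total under 100 (2 WT, 4 heterozygotes, and 3 homozygotes), an alternative added after the data were seen, the log2 fold change between homozygotes and WT mice was -1.22 for *Adamts3* (adjusted p = 0.0172, limma) and -0.58 for *Reln* (adjusted p = 0.002, limma). These were then the 2 genes called out of all genes tested. The 2 WT embryos left hold the 2 highest WT values of *Adamts3*, so that the larger fold change of *Adamts3* follows from which embryos were kept. A further fit took the Hox and meningeal totals as covariates and left out no embryo. In it the log2 fold change between homozygotes and WT mice was -1.11 for *Adamts3* (adjusted p = 8.68e-05, limma). For *Reln* it was -0.58 (adjusted p = 0.000841, limma). The part of hindbrain tissue in the *Adamts3* values of single embryos was not tested.

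**Figure D2:**
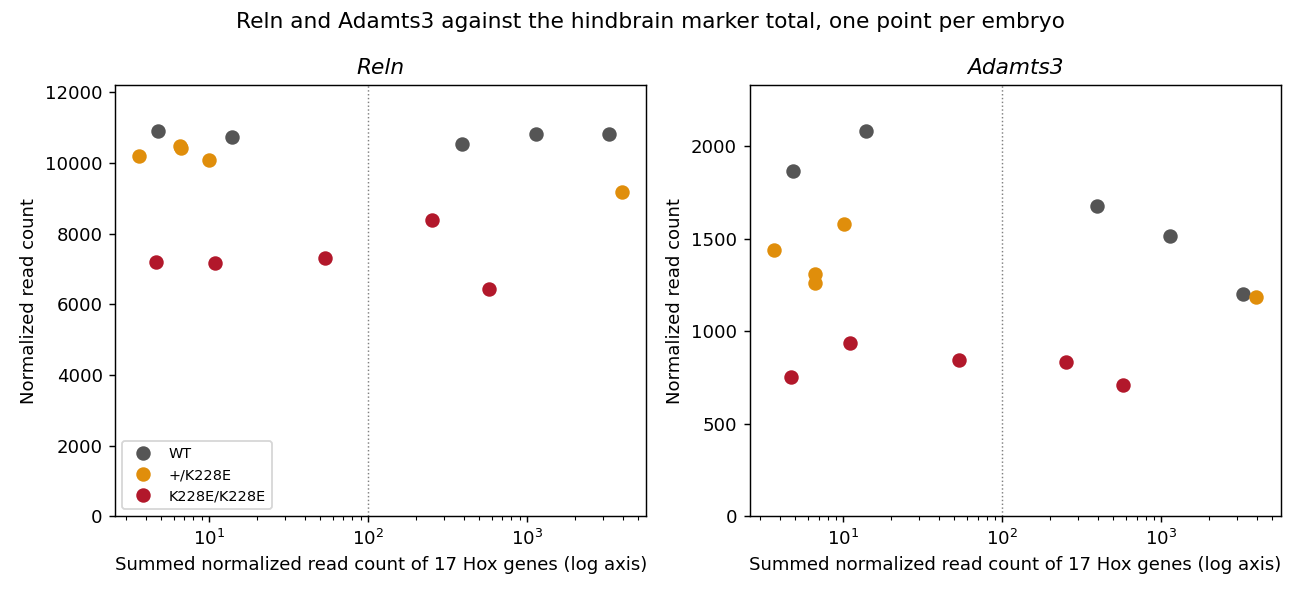
Normalized read counts of *Reln* and *Adamts3* (vertical axes, from 0) against the summed normalized read count of 17 Hox genes (horizontal log axis), with 1 point per embryo and a dotted line at a Hox total of 100. The homozygous embryos lie below the other genotypes on both sides of the line for *Reln* and for *Adamts3*. The lowest WT value of *Adamts3* (1200.9) is that of the WT embryo with the highest Hox total.

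The receptor genes did not pass the threshold in any comparison. *Lrp8* encodes ApoER2, and its normalized read counts were 11039, 12343, 13853, 11405, and 12888 in WT replicates 1 to 5. They were 11928, 12668, 11672, 13447, and 12487 in heterozygous replicates 1 to 5. They were 10894, 11525, 12570, 12557, and 11787 in homozygous replicates 1 to 5. The 3 genotypes overlapped. The log2 fold change relative to WT was -0.05 (95% interval from -0.18 to 0.08) in homozygotes and 0.02 (95% interval from -0.11 to 0.15) in heterozygotes.

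*Vldlr*, which encodes the second receptor, had normalized read counts of 3394, 4008, 3612, 4197, and 4095 in WT replicates 1 to 5. They were 3148, 3711, 3718, 4136, and 3996 in heterozygous replicates 1 to 5. They were 3938, 4147, 4531, 4508, and 4043 in homozygous replicates 1 to 5. The homozygous values lay in the upper part of the range, and 2 of them exceeded every WT value. The log2 fold change between homozygotes and WT mice was 0.14 (95% interval from -0.02 to 0.29, adjusted p of 1, limma). Between homozygotes and heterozygotes it was 0.18, and the exact permutation test of *Vldlr* alone gave p = 0.0476, 1 of 30 such tests over the 10 genes. Over all genes the adjusted p of this difference was 0.996 (limma).

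*Lrpap1* encodes RAP, a chaperone of the endoplasmic reticulum that keeps receptors of the LDL receptor family from binding ligands before they reach the cell surface. Its normalized read counts were 3165, 3207, 3137, 3125, and 3108 in WT replicates 1 to 5. They were 3249, 2816, 3105, 3066, and 3046 in heterozygous replicates 1 to 5. They were 2800.5, 2899, 2657, 2720.4, and 2761 in homozygous replicates 1 to 5. Every homozygous embryo lay below every WT embryo. Of the heterozygous embryos, 4 lay below all WT embryos and 1 lay above all of them.

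*Lrpap1* was 3148 ± 38.8 in WT and 2768 ± 90.6 in homozygotes (SD, n = 5 each), which is 87.9% of WT. The log2 fold change was -0.19 (SE 0.0374), and the exact permutation test gave p = 0.00794. With correction over all genes it did not pass (adjusted p = 0.0968, limma). It passed with an empirical null, in which the test statistics are rescaled by the spread of their central part (adjusted p = 0.00812, limma). *Lrpap1* shared the narrow WT spread of *Reln*, with a coefficient of variation of 1.23%, and 0.121% of genes varied less.

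The genes that act inside the receiving cell did not pass the threshold either. *Dab1* encodes the adaptor that the receptors bind, and its normalized read counts were 5320, 6103, 6627, 4999, and 5683 in WT replicates 1 to 5. They were 5365, 6127, 5722, 6202, and 5723 in heterozygous replicates 1 to 5. They were 5831, 5058, 6418, 5895, and 5913 in homozygous replicates 1 to 5. The 3 groups overlapped, with no order among them. The log2 fold change relative to WT was 0.02 (95% interval from -0.14 to 0.18) in homozygotes and 0.03 (95% interval from -0.13 to 0.18) in heterozygotes. The sign of both turned when Hox and meningeal totals were covariates.

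*Fyn*, the Src family kinase that phosphorylates DAB1, ranged from 6665 to 7404 in WT, from 6887 to 7186 in heterozygotes, and from 6279 to 7376 in homozygotes. The adaptors that bind phosphorylated DAB1 were as close. *Crk* ranged from 4510 to 5067 in WT, from 4792 to 5151 in heterozygotes, and from 4663 to 5154 in homozygotes. *Crkl* ranged from 2274 to 2710.4 in WT, from 2419 to 2564 in heterozygotes, and from 2227 to 2709 in homozygotes. *Pafah1b1* encodes LIS1, a regulator of dynein that acts with the Reelin pathway in migration. It ranged from 15305 to 18113 in WT, from 15096 to 16944 in heterozygotes, and from 15934 to 17085 in homozygotes. The groups overlapped for all 4 genes.

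Between homozygotes and WT mice the 95% interval of the log2 fold change was from -0.10 to 0.08 for *Fyn*, from -0.06 to 0.10 for *Crk*, from -0.11 to 0.12 for *Crkl*, and from -0.09 to 0.10 for *Pafah1b1*. A change of the size seen for *Reln* lay outside the intervals of these 4 genes and of *Dab1*, *Lrp8*, *Vldlr*, and *Lrpap1*.

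**Figure D3:**
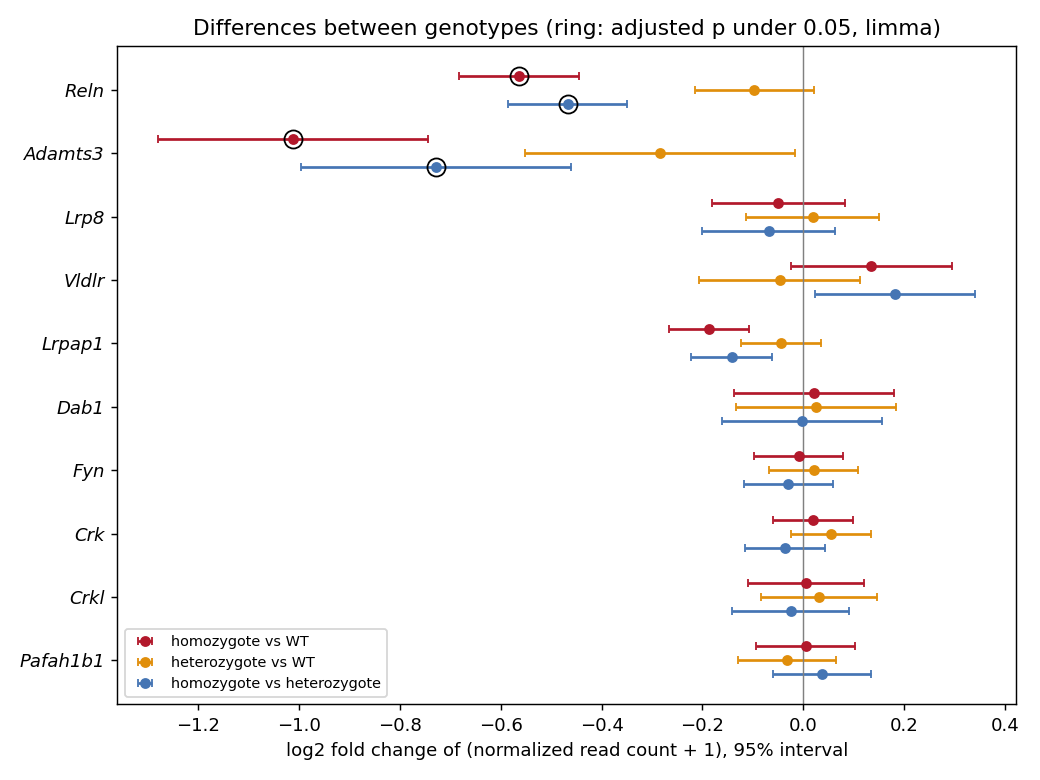
Log2 fold changes of (normalized read count + 1) with 95% intervals (horizontal axis) for the 10 genes, for *Tbr1*K228E/K228E against WT, *Tbr1*+/K228E against WT, and *Tbr1*K228E/K228E against *Tbr1*+/K228E mice, with rings around changes that passed an adjusted p of 0.05 (limma). Rings are present for *Reln* (-0.56 and -0.47) and *Adamts3* (-1.01 and -0.73). Without passing correction, the intervals of *Lrpap1* in homozygotes against WT and against heterozygotes lie below 0. The same holds for *Adamts3* in heterozygotes against WT, and the interval of *Vldlr* in homozygotes against heterozygotes lies above 0.

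In WT mice the 10 genes differed in level per length. Lengths were those of the longest coding transcript that is part of the consensus coding sequence set (CCDS). Per kilobase of this transcript, the WT level in normalized reads was 4647 ± 428.5 for *Lrp8*, 2839 ± 190.2 for *Pafah1b1*, and 1941 ± 81.4 for *Fyn*. *Crk*, *Dab1*, and *Lrpap1* followed at 1119.6 ± 47.2, 1089 ± 122, and 1056 ± 13.0, and their ranges over embryos overlapped. *Reln* was at 920.3 ± 11.7, below each of these. *Vldlr*, *Crkl*, and *Adamts3* were the lowest at 484 ± 43.0, 482 ± 35.4, and 424 ± 85.4, and their ranges overlapped too. The order depends on the length used. Per kilobase of all annotated exons of the gene, *Lrp8* was at 1170.4, below *Pafah1b1* and *Fyn*, and *Reln* at 454, below *Crkl*.

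Beyond these 10 genes, 55 further genes of the pathway are reported by role, and all 55 were tested. In none of the 3 comparisons did a gene of these lists pass the threshold (limma), and 0 of the 55 had an unadjusted p under 0.05 between homozygotes and WT mice, where 3.23% of all genes did. The median log2 fold change of the 55 genes was -0.02, beside -0.00226 for all genes tested, and 32 were lower and 23 higher. Their log2 fold changes ran from -0.32 for *Adamts14*, a relative of *Adamts3*, to 0.10 for *Efnb3*. Among the 10 and the 55 genes, the 2 calls between these genotypes were thus those of the ligand and of its protease *Adamts3*.

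Among 6 other proteases that act on Reelin or on its processing enzymes, 5 were lower in homozygotes than in WT mice (median log2 fold change -0.13). The smallest p was that of *Adamts2*, a relative of *Adamts3* that cleaves procollagen, at 523 ± 112 in WT and 418 ± 75.3 in homozygotes (log2 fold change -0.31, unadjusted p = 0.0657, limma). Among 11 genes for receptor partners and receptor traffic, 8 were lower (median -0.06). The smallest p was that of *Efnb3*, which encodes an ephrin ligand, at 5819 ± 454 in WT and 6230.5 ± 286 in homozygotes (log2 fold change 0.10, unadjusted p = 0.0755, limma), and the groups overlapped.

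For the receiving cell, log2 fold changes between homozygotes and WT mice are given for 4 lists. Among 7 genes for kinases and degradation of DAB1, log2 fold changes lay between -0.06 and 0.00307, and *Socs7*, an adaptor for the degradation of DAB1, had the smallest p (0.583, limma). Among 10 genes that link CRK to RAP1 and adhesion, they lay between -0.23 and 0.06, and the smallest p was that of *Rapgef2*, an activator of RAP1 (0.273, limma). Among 12 genes of PI3K, AKT, and the cytoskeleton they lay between -0.05 and 0.08, and the smallest p was that of *Cfl1*, which encodes the actin-severing protein cofilin (0.120, limma). Among 9 genes of LIS1 and dynein they lay between -0.23 and 0.06, and the smallest p was that of *Pafah1b2*, which encodes a binding partner of LIS1 (0.0977, limma).

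**Figure D4:**
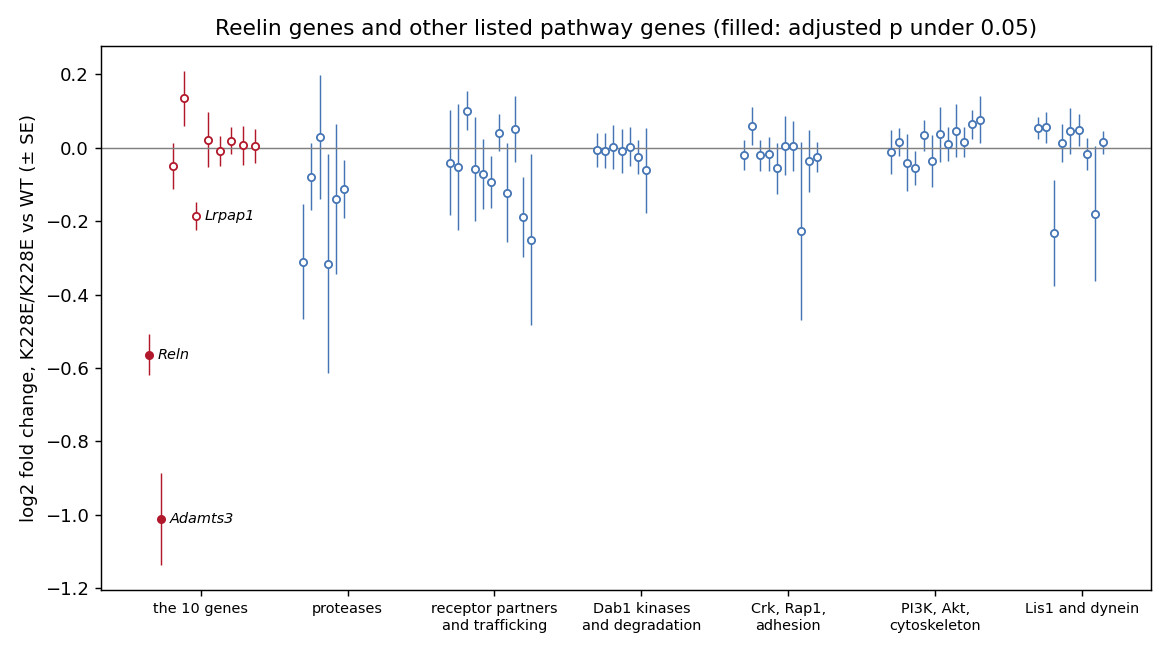
Log2 fold changes between *Tbr1*K228E/K228E and WT mice (vertical axis, ± SE) for the 10 genes (red) and the 55 further pathway genes in 6 lists (blue), with filled points for an adjusted p under 0.05 (limma). The filled points are *Reln* (-0.56) and *Adamts3* (-1.01), and the blue points lie between -0.32 and 0.10.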

How the data were processed

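Each of the 15 embryos was assigned its genotype, replicate number, and sex by the labels, and all were used. Libraries were made with the TruSeq RNA kit v2, which does not mark strand, so that *Reln* reads and those of the antisense gene *Gm10475*, which overlaps its exons and is not in the table, cannot be told apart. The authors quantified transcripts with Salmon 0.11.2 on GRCm38, imported them to genes with tximport, and divided them by size factors of DESeq2 1.22.2 in R 3.5.3. The deposited values are thus normalized signals rather than whole counts, and no count model was fitted.

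In R 4.3.3, limma 3.58.1 (lmFit, eBayes with a trend) was fitted on log2(value + 1) for all 15 embryos and the 16507 genes whose mean reached 5, with Benjamini–Hochberg correction and a threshold of 0.05. Two-sided exact permutation tests compared single genes and marker totals between 5 and 5 embryos (30 tests for the 10 genes). Within genotypes, log2 values correlated with r from 0.971 to 0.989, and no 2 columns were identical. Of the 19475 genes, 19452 were matched to symbols and coordinates of GENCODE M21. The procedure was tested on simulated data.

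The 10 genes and all lists were chosen with earlier results of these data known, and 1 listed gene is not reported here. Named are the 10 genes, *Tbr1*, the gene with the smallest p of each pathway list, and the 5 genes closest in profile to *Reln* and to *Adamts3*. Other names, such as *Ndnf*, *Atoh1*, and *Adamts14*, were added after their values were seen. Alternatives were other pseudocounts (0.1 and 10), filters (none and a mean of 50), scalings, sex, Hox and meningeal covariates, a replicate block, robust eBayes, the 2 genotypes alone, an empirical null, and leaving out each embryo.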

Additional observations from a re-analysis of the deposited data

Results flagged for a closer look

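Of 63 groups of 5 embryos tested for a single embryo far from the rest, 2 stood out, where chance gives about 1 in 20. The summed level of 7 markers of GABAergic interneurons, which also make Reelin, was 25850 in heterozygous replicate 2, far above the next embryo of its genotype (20170). *Reln* itself was 10206 in this embryo, inside the range of its genotype. The summed level of 17 Hox genes was 3963 in heterozygous replicate 1, whereas the next embryo of its genotype had 10.1. This embryo had the lowest heterozygous *Reln* (9189) and *Adamts3* (1186) values, and the part of its hindbrain RNA in these values was not tested.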

How the results depend on the processing

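Between homozygotes and WT mice, *Reln* and *Adamts3* passed the threshold in all 10 fits that left out 1 embryo and in all 13 other settings (limma). Their log2 fold changes ran from -0.62 to -0.52 and from -1.12 to -0.93 when an embryo was left out. Between the mutant genotypes *Reln* passed in all of them, whereas *Adamts3* did not pass with sex as a covariate (adjusted p = 0.0629), with a replicate block (adjusted p = 0.0996), in embryos with a Hox total under 100 (adjusted p = 0.0975), or without any 1 embryo of either genotype, so that 1 of the 10 genes was called in each of these. The empirical null added *Lrpap1* to the calls between homozygotes and WT mice. None of the 10 genes passed between heterozygotes and WT mice in any setting. The normalized values hold no read counts, and depth limits mainly genes with low values.

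Over all genes, the 21 calls between homozygotes and WT mice became 42 with the empirical null, 12 in a fit of the 2 genotypes alone, 2 in embryos with a Hox total under 100, and 12 to 21 without 1 embryo, with counts under 14 without WT replicate 1 or 2 or homozygous replicate 3 or 4. The 13 calls between the mutant genotypes became 2 with the replicate block, 3 with a Hox total under 100, and 6 to 8 without 1 embryo. The 0 genes called off the midpoint became 1 without WT replicate 3, and this contrast could not be fitted with 2 genotypes alone. The cause of these shifts was not tested.

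Same-numbered embryos were not treated as pairs, since not every correlation was over 0.1. Their deviations correlated with r from -0.21 to 0.22 between WT and heterozygotes, from 0.0239 to 0.506 between WT and homozygotes (4 of 5 over 0.1), and from -0.23 to 0.35 between the mutant genotypes, and 1, 3, and 2 of 5 embryos correlated best with their own number. The replicate block changed no call of the 10 genes other than that of *Adamts3*.

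Signs turned in genes that never passed. For homozygotes against WT mice, *Pafah1b1* had a log2 fold change of -0.021 with quantile normalization, and the values with Hox and meningeal covariates were -0.028 for *Dab1*, -0.0050 for *Crk*, -0.025 for *Crkl*, and -0.0082 for *Pafah1b1*, with -0.013 for *Dab1* in heterozygotes against WT mice. In embryos with a Hox total under 100, *Dab1* was at -0.016 and *Crkl* at -0.0018 between homozygotes and WT mice. Between heterozygotes and WT mice *Lrp8* was at -0.090, *Vldlr* at 0.015, *Dab1* at -0.047, *Fyn* at -0.0044, and *Crkl* at -0.013. Between the mutant genotypes *Dab1* was at 0.032, *Fyn* at 0.0029, and *Crkl* at 0.011, and against the midpoint *Lrp8* was at -0.030, *Dab1* at -0.039, *Fyn* at -0.0037, and *Crkl* at -0.012.

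Without 1 embryo, the log2 fold change between homozygotes and WT mice ran from -0.026 to 0.075 for *Dab1*, from -0.0033 to 0.039 for *Crk*, from -0.033 to 0.047 for *Crkl*, from -0.021 to 0.039 for *Pafah1b1*, and from -0.034 to 0.024 for *Fyn*. Between heterozygotes and WT mice it ran from -0.019 to 0.063 for *Lrp8*, from -0.023 to 0.079 for *Dab1*, from -0.058 to 0.0025 for *Pafah1b1*, and from -0.092 to 0.014 for *Vldlr*. Between the mutant genotypes it ran from -0.040 to 0.046 for *Dab1*, from -0.055 to 0.0028 for *Fyn*, and from -0.064 to 0.0068 for *Crkl*, and against the midpoint from -0.010 to 0.044 for *Dab1*.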

Other observations

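Across the 15 embryos, the genes with the profile most like that of *Reln* were chosen by the mean absolute difference, on the log2 scale, between their deviations from the WT mean and those of *Reln*. This measure was 0.225 for a flat profile. It was 0.101 for *Unc5b*, a netrin receptor, 0.120 for *Prex1*, an activator of RAC, 0.123 for *Nfe2l3*, a transcription factor, and 0.138 for both *Rbm14*, an RNA-binding protein, and *Sybu*, a protein of axonal transport. *Unc5b* was 832 ± 58.4 in WT, 775 ± 8.18 in heterozygotes, and 626 ± 71.3 in homozygotes, and *Prex1* was 3799 ± 382, 3509.9 ± 96.9, and 2732 ± 145 in the same order (SD, n = 5 each). *Lrpap1* stood at rank 14 of all genes tested with 0.163, ahead of the other 8 genes of the Reelin pathway.

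For *Adamts3* a flat profile gave 0.507. The closest genes were *Wnt7b*, which encodes a secreted Wnt ligand (0.209), *Nfe2l3* (0.258), *Cd274*, which encodes an immune checkpoint ligand (0.260), *Lypd6*, a regulator of Wnt signaling (0.277), and *Gm11870* (0.287). *Reln* stood at rank 8 with 0.294. Among genes compared with *Reln*, the same difference placed *Adamts3* at rank 9267, farther away than a flat profile (0.225). *Wnt7b* was 2676 ± 407 in WT, 2659.7 ± 358 in heterozygotes, and 1541 ± 139.9 in homozygotes (SD, n = 5 each). The heterozygous mean of *Wnt7b* lay beside its WT mean, whereas that of *Lypd6*, at 477 ± 22.6 between 585 ± 44.2 and 418 ± 42.4, lay between the others.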
